A study of Mus musculus with 59 samples.

Results

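The aryl hydrocarbon receptor (AHR) and 7 genes of its pathway were followed through all 4 expression tables of the series. The 8 genes were Ahr, its partner Arnt, its repressor Ahrr, and the target genes Tiparp, Cyp1a1, Cyp1a2, Cyp1b1 and Aldh3a1. All 8 were found by symbol in each table of 24972 genes. They were chosen by the Cyp1a1 values of AML12 libraries, seen to be high with bempedoic acid and in 1 untreated library, number 13, so the comparisons of bempedoic acid with no compound, and every Cyp1a1 value with bempedoic acid, are a description and carry no test. Comparisons of Cyp1a1 with the untreated group that holds library 13 are also read as a description.

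AHR is a transcription factor that waits in the cytosol bound to HSP90 and other chaperones. On binding a ligand, such as a planar aromatic pollutant or a tryptophan metabolite, it enters the nucleus, pairs with ARNT and binds DNA at the core letters GCGTG. The cytochromes P450 of family 1 are its best known targets and oxidize many of its ligands, while TIPARP and AHRR feed back on the receptor. In liver, Cyp1a2 is a major constitutive enzyme of hepatocytes, and Cyp1a1 is known as a gene that is nearly silent until the receptor is activated.

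RNA was sequenced from 59 libraries in 17 groups. AML12, a line of mouse hepatocytes grown with dexamethasone, gave 24 libraries in 8 groups of 3. These cells carried a control siRNA (siC) or one that targets Acly, the gene of ATP citrate lyase (siAcly), and were left untreated (Ut) or given 1 mM potassium hydroxycitrate (HC), 10 µM SB-204990 (SB) or 30 µM bempedoic acid (Bemp) for 16 h, starting 24 h after the siRNA. All 3 compounds are inhibitors of ATP citrate lyase. Liver and soleus came from male C57BL/6 mice aged 41 weeks on standard chow (Ut) or on chow with 7.5 g/kg HC for 21 weeks (HC), in 2 groups of 5 for each tissue. Gastrocnemius came from male C57BL/6 mice of about 6 months that were not injured, or that were injected with cardiotoxin (CTX), a toxin that kills muscle fibers, and taken at day 2 or day 30 on chow without (CTX) or with 7.5 g/kg HC (CTX-HC), in 5 groups of 3. The uninjured and CTX groups carry no compound, and AML12 cells of every group carry an siRNA.

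Values are gene counts that the authors normalized by the median of ratios within each table, called normalized values here, so levels set across tables are side by side and not tested. Estimated depth lay between 7.31 and 16.3 M reads for libraries of AML12, liver and soleus and between 16.0 and 34.9 M for gastrocnemius. Albumin was 471400 to 855300 in liver and 372 to 13840 in AML12 cells, where it was above 0 in every library. Nothing in the labels says that the AML12 libraries came from separate cultures, so their spread may be technical. Where groups are said not to overlap, the share of all genes that do the same was not counted, so this is a description only.

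Library siC Bemp 11 and library siC Ut 13 went against other libraries in genes outside the pathway as well. Acly was 404 in siC Bemp 11, against 2947 and 2883 in siC Bemp 10 and 83, and it was 215 to 598 in the 12 siAcly libraries. The AML12 library numbers were read as 3 families, a split noticed after the values were seen: numbers 1, 4, 7 and on to 22, numbers 2, 5, 8 and on to 23, and number 15 with the separate run 81 to 87, each of 8 libraries. Library 15 was unlike the others of the third family without Bemp. Cyp1a1 was 169 in it and 360 to 495 in those, and Alb was 2840 against 372 to 1094.5. The labels do not say what the numbers mark. Apoa1, a hepatocyte gene, was 3722 to 8049 in the first family without library 13, 58.6 to 187 in the second without library 11 and 43.8 to 138 in the third. It was 147 in library 13 of the first family and 4193 in library 11 of the second. Within its labelled group library 13 did not stand apart in these 2 genes: Acly was 2750, 3804 and 3263, and Apoa1 3722, 106 and 147, in siC Ut 1, 2 and 13. The main differences and orders that rest on the siC Ut and siC Bemp groups are given with these 2 libraries and, below or in the closing section, without them, and both are set aside wherever families of library numbers are compared.

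Cyp1a1 had the highest mean per kilobase of exon of the 8 members in 7 of the 8 AML12 groups (Ahr led in siAcly SB), or in 6 without libraries 11 and 13, where Ahr also led in siC Ut. Its highest levels lay in Bemp libraries. It encodes the P450 that is the textbook readout of AHR activity. In siC Ut it was 195, 200 and 917, and in siC Bemp it was 1255, 236 and 1075. In siAcly Ut it was 142, 169 and 441, and in siAcly Bemp it was 1095, 678 and 753. Ordered from the top, the 6 highest of the 24 libraries were siC Bemp 10, siAcly Bemp 22, siC Bemp 83, siC Ut 13, siAcly Bemp 87 and siAcly Bemp 23, at 1255 down to 678. The next was siC HC 82 at 495, and the sixth Bemp library, siC Bemp 11, was thirteenth at 236.

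The mean of Cyp1a1 was 437 ± 416 (SD, n = 3) in siC Ut and 856 ± 544 (SD, n = 3) in siC Bemp, groups that overlap because of libraries 13 and 11. The log2 difference was 1.05, and 2.55 with both of these libraries left out. In siAcly cells the mean was 251 ± 166 (SD, n = 3) in Ut and 842 ± 222 (SD, n = 3) in Bemp, a log2 difference of 1.90 between groups that did not overlap. These are the values that chose the genes and are not evidence of their own.

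**Figure D1:**
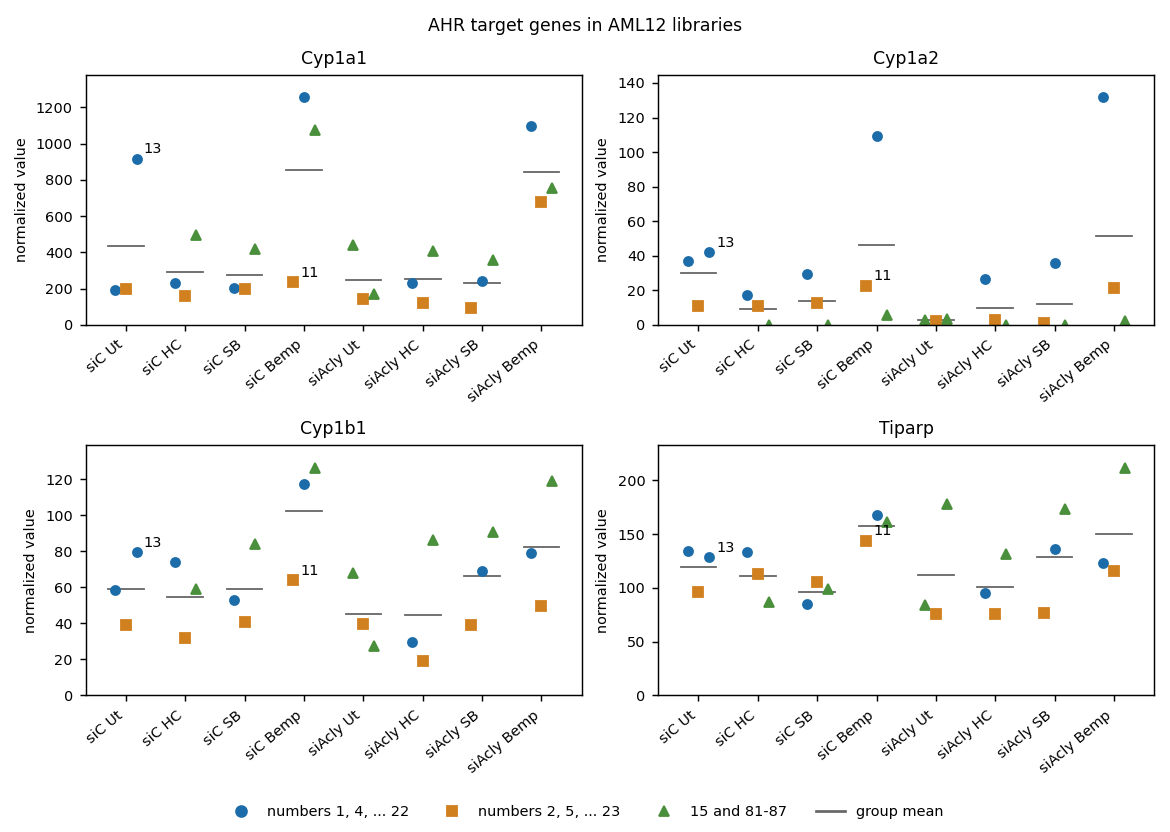
Normalized values of Cyp1a1, Cyp1a2, Cyp1b1 and Tiparp in the 24 AML12 libraries by group, with marker shape and color for the 3 families of library numbers and a line at each group mean of 3 libraries. Libraries 11 and 13 are numbered: Cyp1a1 is 236 in siC Bemp 11 and 917 in siC Ut 13, while the other 5 Bemp libraries lie between 678 and 1255.

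With libraries 11 and 13 set aside, Cyp1a1 was 678 to 1255 in the other 5 Bemp libraries and 94.8 to 494.6 in the 17 libraries without Bemp. The same order was seen within each family of library numbers. In the first family, Cyp1a1 was 1255 and 1095 in the 2 Bemp libraries and 195 to 241 in 5 Ut, HC and SB libraries, with library 13 set aside. In the second it was 678 in siAcly Bemp 23 and 94.8 to 200.2 in 6 libraries without Bemp, with library 11 set aside. In the third it was 1075 and 753 against 169 to 495 in 6 libraries. All 5 Bemp libraries other than number 11 were thus above every library without Bemp of their family, at 1.82 to 5.46 times its median. The third family had the highest level without Bemp, with a median of 414 against 229.7 and 150.1, and the smallest ratios, 1.82 and 2.60.

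Library siC Ut 13, labelled untreated, had 3.99 times the Cyp1a1 median of its own family, 6.11 times that of the second and 2.22 times that of the third. Library siC Bemp 11 had 1.57 times the median of its own family and 1.03 times that of the first, where its Apoa1 value lies. Whether the labels of these 2 libraries are right was not tested, and both were kept in their labelled groups.

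Sequences just before the start of 4 target genes are shown because the values of these genes were set beside each other in the Bemp libraries. They are the 250 bases up to the RefSeq start on GRCm38.p6, written 5′ to 3′ on the strand of the gene, with the AHR core GCGTG, or CACGC where it lies on the other strand, in capitals. RefSeq promoters were at hand for 6 of the 8 members and not for Ahr and Aldh3a1.
Cyp1a1, chr9:57697363-57697612, plus strand: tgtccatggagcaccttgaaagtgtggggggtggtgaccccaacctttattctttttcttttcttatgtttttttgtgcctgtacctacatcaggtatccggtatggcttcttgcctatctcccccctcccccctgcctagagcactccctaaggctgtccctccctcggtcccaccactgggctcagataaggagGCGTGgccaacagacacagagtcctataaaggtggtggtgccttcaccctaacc
Cyp1b1, chr17:79715062-79715311, minus strand: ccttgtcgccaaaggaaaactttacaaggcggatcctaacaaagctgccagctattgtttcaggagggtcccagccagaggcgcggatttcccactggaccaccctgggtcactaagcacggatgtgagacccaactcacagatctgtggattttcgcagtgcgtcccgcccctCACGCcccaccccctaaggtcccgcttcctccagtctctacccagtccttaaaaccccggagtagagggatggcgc
Tiparp, chr3:65528197-65528446, plus strand: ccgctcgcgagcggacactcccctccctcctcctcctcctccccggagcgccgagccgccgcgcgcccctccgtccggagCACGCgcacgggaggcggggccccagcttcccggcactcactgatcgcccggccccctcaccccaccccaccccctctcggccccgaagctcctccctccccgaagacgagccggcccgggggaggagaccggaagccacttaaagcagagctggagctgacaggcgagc
Cyp1a2, chr9:57683656-57683905, minus strand: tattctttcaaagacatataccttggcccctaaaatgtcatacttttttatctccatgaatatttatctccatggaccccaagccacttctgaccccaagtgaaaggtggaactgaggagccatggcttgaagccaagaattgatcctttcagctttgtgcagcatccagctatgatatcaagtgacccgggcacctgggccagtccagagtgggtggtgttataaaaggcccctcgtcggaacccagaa

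Cyp1a1, Cyp1b1 and Tiparp each had 1 core in the window, whose first base lay 54, 76 and 170 bases before the start, and Cyp1a2 had 0. Of the other promoters at hand, Arnt had 1 core and Ahrr had 3. Of 27025 promoters of the same length, 1 for each gene, 28.2% held the core on either strand. A match of 5 letters is a description and not a binding site. The cluster of AHR elements known for Cyp1a1 lies farther upstream than this window, so its absence or presence at any gene was not read here.

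Cyp1a1 and Cyp1a2 lie back to back on chromosome 9 (GRCm38), Cyp1a1 at 57687928 to 57703824 on the plus strand and Cyp1a2 at 57676937 to 57683703 on the minus strand. They are close paralogs: 152 of the 2756 stretches of 31 bases in the Cyp1a1 transcripts, 5.52%, also occur in Cyp1a2. How the counting handled reads from these stretches is not given in the sources used here.

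Cyp1a2, the second P450 of the pair, followed the families of library numbers more than the groups. In siC Ut it was 36.7, 11.2 and 41.9, and in siC Bemp it was 109, 22.8 and 6.04. In siAcly Ut it was 2.06, 3.17 and 3.65, and in siAcly Bemp it was 132, 21.1 and 2.38. In both Bemp groups the value of the first family was the highest and that of the third the lowest.

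Within the first family, Cyp1a2 was 109 and 132 in Bemp libraries against 17.4 to 36.7 without Bemp, or 3.70 and 4.46 times the median. Within the second it was 21.1 against 0.946 to 12.9, or 3.14 times the median. In the third family the Bemp libraries had 6.04 and 2.38, the others lay from 0 to 3.65 with a median of 0, and no ratio was formed. So 4 of the 5 Bemp libraries other than number 11 were above all others of their family. Library 13 had 41.9, which is 1.42 times the median of its own family and 6.23 times that of the second, where its Apoa1 value lies. Library 11 had 22.8, which is 3.39 times the median of its own family and 0.773 times that of the first. Over the groups as labelled the log2 difference between Bemp and Ut was -0.03 in siC and 2.46 in siAcly cells, and with the number family as a covariate these were 1.43 and 1.00. The siAcly Ut libraries hold none of the first family, which gave the highest siAcly Bemp value.

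Cyp1b1, a P450 of the same family that also metabolizes estrogens and is expressed widely outside liver, was lower in level and less different. In siC Ut it was 58.6, 39.2 and 79.6, and in siC Bemp it was 117, 64.1 and 126. In siAcly Ut it was 27.2, 39.9 and 68.0, and in siAcly Bemp it was 79.4, 49.9 and 119. Both pairs of groups overlapped. The log2 difference was 0.78 in siC cells, 1.33 without libraries 11 and 13, and 0.87 in siAcly cells. Within families, with library 13 set aside, all 5 Bemp libraries other than number 11 were above every library without Bemp, at 1.27 to 2.00 times the median. With library 13 counted under its label this held for 4 of the 5, since its 79.6 lay just above the 79.4 of siAcly Bemp 22.

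Tiparp encodes a mono-ADP-ribosyltransferase that marks the receptor for loss. In siC Ut it was 134, 96.0 and 128, and in siC Bemp it was 168, 144 and 161. These 2 groups did not overlap, with no share of all genes to set beside this. In siAcly Ut Tiparp was 83.8, 75.5 and 178, and in siAcly Bemp it was 123, 116 and 212, which overlapped. The log2 difference was 0.41 in siC cells, 0.53 without libraries 11 and 13, and 0.47 in siAcly cells. Of the 5 Bemp libraries other than number 11, 3 were above all libraries without Bemp of their family, at 0.921 to 1.84 times the median. For Tiparp, library 13 lay at 0.960 times the median of its own family. It was 1.49 times that of the second, where its Apoa1 value lies, and 1.12 times that of the third.

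Aldh3a1, an aldehyde dehydrogenase that AHR ligands induce in hepatoma cells, showed no such order. It was 38.0 to 93.9 in the 6 Bemp libraries and 24.4 to 134.9 in the 18 others. None of the 5 Bemp libraries other than number 11 was above all others of its family, at 0.802 to 1.44 times the median. The lowest values were in the first family, 24.4 to 54.1 without library 13, which itself had 73.4.

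Levels of the receptor and its partner with Bemp lay inside or below those without. Ahr was 190.4 to 559 in the 6 Bemp libraries and 277 to 691 in the 18 others, and Arnt was 497 to 670 in the former and 500 to 715 in the latter. No Bemp library, number 11 included, was above all libraries without Bemp of its family for either gene. Ahrr, whose protein competes with AHR for ARNT, was listed at 0 in 22 of the 24 AML12 libraries and at 1.70 or less in the other 2, one of which was siAcly Bemp 23. It passed the limit on low values in no AML12 comparison.

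**Figure D2:**
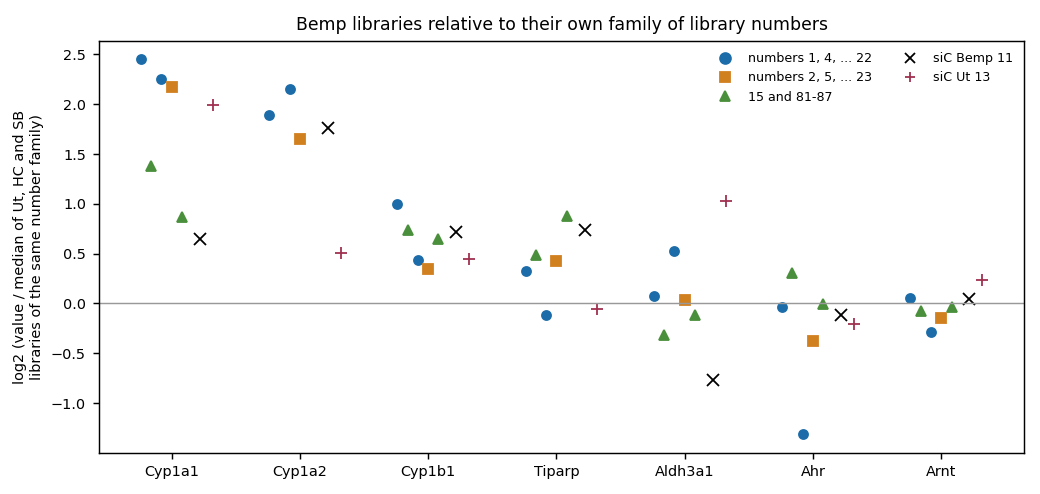
Log2 ratio of each Bemp library to the median of the Ut, HC and SB libraries of the same family of library numbers, for 7 members in AML12 cells, with libraries siC Bemp 11 and siC Ut 13 drawn apart. All 5 other Bemp libraries lie above 0 for Cyp1a1 (1.82 to 5.46 times) and Cyp1b1 (1.27 to 2.00 times) and on both sides of 0 for Ahr and Aldh3a1; Cyp1a2 of the third family has no ratio because its median was 0.

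HC and SB were compared with Ut to ask whether the other 2 inhibitors of the enzyme gave the same readout. A gene counted as tested when its value was at least 10 in at least 3 AML12 libraries, which kept 12296 genes and 7 members, all but Ahrr. No member passed an adjusted p of 0.05 in limma for HC or for SB, in siC or in siAcly cells, where the share of all tested genes that passed was 0% in each of the 4 comparisons. Cyp1a1 in siC cells is counted there but read as a description. At an unadjusted p under 0.05 there were 42, 70, 271 and 1648 genes for siC HC, siC SB, siAcly HC and siAcly SB, and no member was among them.

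Cyp1a1 was 230, 158 and 495 in siC HC and 204, 197 and 418 in siC SB. In siAcly cells it was 233, 119 and 409 with HC and 241, 94.8 and 359.7 with SB. In all 4 groups the highest value came from the third family. Library 13, whose Cyp1a1 value helped choose the genes, lies in siC Ut, so the differences in siC cells are a description. The log2 difference from Ut was -0.33 ± 0.69 (SE) for siC HC and -0.36 ± 0.69 for siC SB. Without libraries 13 and 11 these became 0.41 and 0.37. In siAcly cells the differences were 0.03 ± 0.69 and -0.12 ± 0.69, with adjusted p of 1 and 0.953. The SE, from a fit that leaves out the number families, allows differences of over 1 on the log2 scale in either direction. An effect of HC or SB on Cyp1a1 of that size was thus not detectable in this fit. As a description, siC Ut 1, HC 7 and SB 4 of the first family had 195, 230 and 204. In the second, siC Ut 2, HC 8 and SB 5 had 200, 158 and 197. There, siAcly Ut 14, HC 20 and SB 17 had 142, 119 and 94.8. In the third, siAcly Ut 84, HC 86 and SB 85 had 441, 409 and 360, while siAcly Ut 15 had 169.

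The effect of HC and that of SB were also compared between siAcly and siC cells as an interaction. No member passed, with Cyp1a1 read as a description only (0% of all genes in both interactions, with 63 and 1038 genes at an unadjusted p under 0.05 in limma). Arnt in siAcly cells was 500 to 511 with HC, 530 to 569 untreated and 577 to 645 with SB. These 3 groups did not overlap, with no share of all genes to set beside this. Its log2 differences from Ut were -0.13 ± 0.13 and 0.14 ± 0.13 (SE), with adjusted p of 1 and 0.65 in limma.

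Knockdown of Acly was compared within each treatment. No member passed in any of the 4 comparisons, with Cyp1a1 without compound and with Bemp read as a description only. Of all genes, 0.187% passed without compound, 0.00813% with HC, 0% with SB and 0% with Bemp. In the same order, 2332 (19%), 655 (5.33%), 374 (3.04%) and 484 (3.94%) genes had an unadjusted p under 0.05 in limma. Ahr was 431, 447 and 278 in siAcly HC and 536, 648 and 667 in siC HC, without overlap. The log2 difference was -0.70 ± 0.28 (SE) with an adjusted p of 0.89 in limma. In Bemp it was 190.4, 403 and 452 in siAcly and 462, 485 and 559 in siC cells, again without overlap, at -0.62 ± 0.28 with an adjusted p of 0.933. The siC group there includes library 11, whose Acly was at the knockdown level, and without libraries 11 and 13 the difference was -0.64 with an adjusted p of 1. These were 2 of the 4 member tests in the series with an unadjusted p under 0.05 (0.0207 and 0.0391 in limma), beside 5.33% and 3.94% of all genes in the same 2 comparisons. For the Ahr groups without overlap, the share of all genes that do the same was not counted. In all, 105 member tests were run, those of Cyp1a1 read as a description counted.

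Arnt was 530 to 569 in siAcly Ut and 607 to 715 in siC Ut, a log2 difference of -0.26 ± 0.13 (SE) with an adjusted p of 0.276 in limma, or -0.21 without library 13. With HC it was 500 to 511 in siAcly and 526.4 to 687 in siC cells, at -0.26 ± 0.13 and an adjusted p of 0.89. Cyp1a2 was also without overlap between siAcly Ut and siC Ut, at -2.79 ± 1.59 and an adjusted p of 0.345 in limma, or -2.46 without library 13. The siAcly Ut libraries hold none of the first family and the siC Ut libraries none of the third, and with the family as a covariate the difference of Cyp1a2 was 0.13. As a description, the log2 difference of Cyp1a1 between siAcly and siC cells was -0.58 ± 0.69 (SE) without compound and 0.27 with Bemp. Without libraries 11 and 13 the signs turned, to 0.15 and -0.50.

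In liver the order of Cyp1a1 and Cyp1a2 was the reverse of that in AML12 cells. Cyp1a2 was 1692, 2037, 2055, 2120 and 2308 in liver Ut and 1683, 1907, 2096, 2536 and 2869 in liver HC. Cyp1a1 was 0 to 8.49 in liver Ut and 2.00 to 8.32 in liver HC. Per kilobase of exon, the mean of Cyp1a2 was 1010 in liver Ut and that of Cyp1a1 was 1.55, a ratio of 652. In siC Ut the mean of Cyp1a1 per kilobase was 157 and that of Cyp1a2 was 14.9, a ratio of 10.5 in the other direction. Without library 13 these were 70.8 and 11.9, a ratio of 5.95. The tables were normalized apart from each other, but each ratio is within a table.

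Per kilobase the order in liver Ut was Cyp1a2, Ahr, Arnt, Tiparp, Cyp1a1, Cyp1b1, Aldh3a1 and Ahrr. Ahr and Arnt overlapped in their libraries, as did Cyp1a1 and Cyp1b1, and Aldh3a1 and Ahrr. In siC Ut the order was Cyp1a1, Arnt, Ahr, Aldh3a1, Tiparp, Cyp1a2, Cyp1b1 and Ahrr. There Cyp1a1 overlapped with Arnt, Arnt with Ahr, Aldh3a1 with Tiparp and Cyp1a2 with Cyp1b1. Cyp1a1 was first because of library 13: without it the order began with Ahr at 81.8, Arnt at 80.3 and Cyp1a1 at 70.8, and the other 5 kept their places. Aldh3a1 was 21.5 to 51.7 per kilobase in siC Ut and listed at 0 in 8 of the 10 liver libraries.

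Dietary HC left the members in liver within the spread of the mice. Of the 8 members, 5 were tested, none passed, and 0% of 11497 genes passed (488 at an unadjusted p under 0.05 in limma). The log2 difference of Cyp1a2 was 0.10 ± 0.14 (SE), with an adjusted p of 0.995. Ahr was 216 to 472 in Ut and 278 to 452 in HC, at 0.10 ± 0.21 and the same adjusted p. Arnt was 246 to 443 in Ut and 218 to 331 in HC, at -0.12 ± 0.16, also with an adjusted p of 0.995. Tiparp was 47.7 to 59.2 in Ut and 33.6 to 71.3 in HC.

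**Figure D3:**
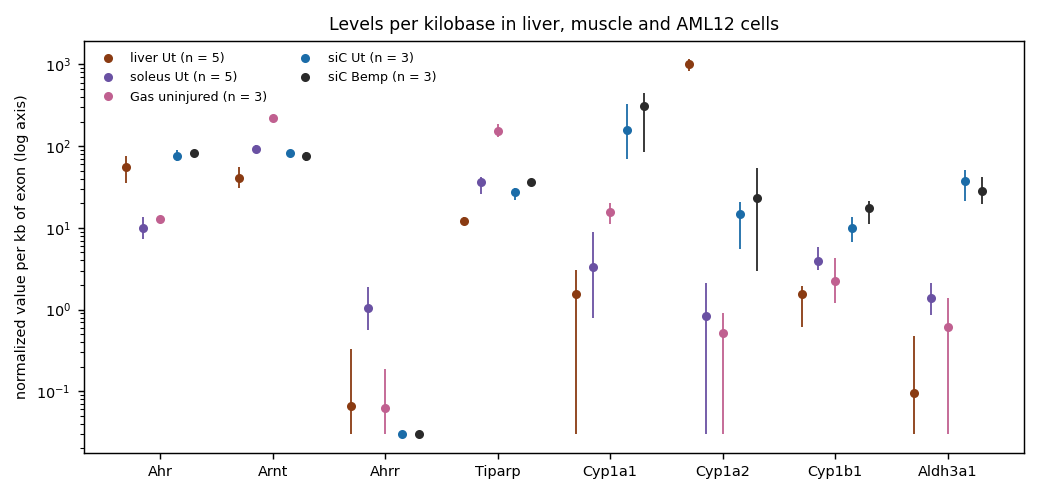
Normalized value per kilobase of exon for the 8 members in liver Ut, soleus Ut, uninjured gastrocnemius, siC Ut and siC Bemp, as group means (points) with lines from the lowest to the highest library, on a log axis with values under 0.03 drawn at 0.03. Cyp1a2 stands at 1010 in liver and 14.9 in siC Ut, while Cyp1a1 stands at 1.55 in liver and 157 in siC Ut (70.8 without library 13).

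Soleus, a slow muscle, held Arnt and Tiparp as its leading members, at 93.1 and 36.1 per kilobase in soleus Ut, with Ahr at 10.1 and the other 5 at 3.95 or less. Arnt was 699 to 821 in Ut and 615 to 760 in HC, a log2 difference of -0.09 ± 0.08 (SE) with an adjusted p of 0.999 in limma. Ahr was 45.2 to 84.2 in Ut and 36.1 to 79.8 in HC, at -0.19 ± 0.24, and Tiparp was 112 to 184 and 133 to 210, at 0.07 ± 0.15, both with the same adjusted p. No member of 5 tested passed, and 0% of 12067 genes passed (609 at an unadjusted p under 0.05). Soleus was the one tissue where Ahrr passed the limit on low values, at 5.28 to 17.8 in Ut and 3.70 to 15.5 in HC. Albumin, which muscle does not make, ranged from 16.2 to 1087 over the soleus libraries, and its part in these values was not tested. In bulk tissue, fewer cells of a type and less RNA per cell cannot be told apart.

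In gastrocnemius, a mixed muscle, Cyp1a1 and Cyp1b1 lay apart between uninjured muscle and muscle at day 2 after cardiotoxin, in opposite directions. Cyp1a1 was 45.5, 30.6 and 55.8 in uninjured muscle and 13.7, 5.84 and 11.7 in CTX day 2, without overlap. The log2 difference was -2.01 ± 0.64 (SE), and limma gave an unadjusted p of 0.0077 and an adjusted p of 0.268. Cyp1b1 was 24.7, 7.15 and 7.25 in uninjured muscle and 98.0, 110.4 and 44.5 in CTX day 2, also without overlap, at 2.73 ± 1.31 with an adjusted p of 0.348. Neither passed, and 0% of 14033 genes passed in this comparison, where 2095 had an unadjusted p under 0.05. The share of all genes without overlap was not counted. Tiparp was 570 to 808 in uninjured muscle and 349.7 to 586 in CTX day 2, at -0.52 ± 0.37 with an adjusted p of 0.491.

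Markers of other cells moved beside these values. The summed level of 5 fibroblast markers (Col1a1, Col3a1, Pdgfra, Dcn and Lum) was 9215 to 12650 in uninjured muscle and 21500 to 47540 in CTX day 2. Its members went both ways: the means of the collagen genes Col1a1 and Col3a1 were 4820 and 4767 in uninjured muscle and 19490 and 13930 in CTX day 2, while Dcn was 1118 and 463 and Lum 183.5 and 101.5, and the median log2 difference of the 5 was 0.23. The summed level of 5 macrophage markers was 693 to 3460 and 1767 to 9632, and that of 4 endothelial markers was 4058 to 7443 and 3610 to 4229. The muscle markers summed to 2159000 to 3047000 in uninjured muscle and 1235000 to 2279000 in CTX day 2. The part of each cell type in the values of Cyp1a1 and Cyp1b1 was not tested.

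With HC after injury, Ahr was 146, 168 and 101 in CTX-HC day 2 and 71.3, 83.2 and 75.6 in CTX day 2, without overlap. The log2 difference was 0.81 ± 0.33 (SE) with an adjusted p of 0.662 in limma, and 0% of all genes passed (1005 at an unadjusted p under 0.05). Ahrr, too low to be tested, was 3.87, 5.28 and 2.37 in CTX-HC day 2 and 1.84, 1.19 and 1.09 in CTX day 2. Cyp1a1 was 2.92, 12.98 and 10.8, and Cyp1b1 was 338, 157 and 15.1. Macrophage markers summed to 5274 to 23400 in CTX-HC day 2 and 1767 to 9632 in CTX day 2, and 3 neutrophil markers to 311.7 to 1080 and 25.2 to 364. The skeletal muscle markers summed to 842200 to 1212000 in CTX-HC day 2 and 1235000 to 2279000 in CTX day 2, without overlap. The part of these cell types in the Ahr values was not tested.

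At day 30, Cyp1a1 was 23.2, 9.75 and 39.6 in CTX and 29.5, 39.2 and 11.5 in CTX-HC, between the values of uninjured muscle and those of day 2 and overlapping with both. The log2 difference of CTX day 30 from uninjured muscle was -0.99 ± 0.64 (SE) with an adjusted p of 1 in limma, and 0% of all genes passed (437 at an unadjusted p under 0.05). Cyp1b1 was 143, 8.83 and 42.1 in CTX and 85.6, 16.2 and 549 in CTX-HC, at 1.25 ± 1.31 with an adjusted p of 1, where 0% of all genes passed (106 at an unadjusted p under 0.05). The highest value in each group came from library CTX day 30 51 and library CTX-HC day 30 62, whose fibroblast marker sums of 57490 and 54970 compare with 10280 to 15530 in the other 4 libraries of day 30. Without these 2 libraries the difference of Cyp1b1 was 0.61, and without CTX-HC day 30 62 alone it was -0.03. Between day 30 and day 2 of CTX, Arnt was 1828 to 2333 and 1571 to 1824 without overlap, at 0.23 ± 0.14 with an adjusted p of 0.351, and no member passed beside 0.257% of all genes.

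**Figure D4:**
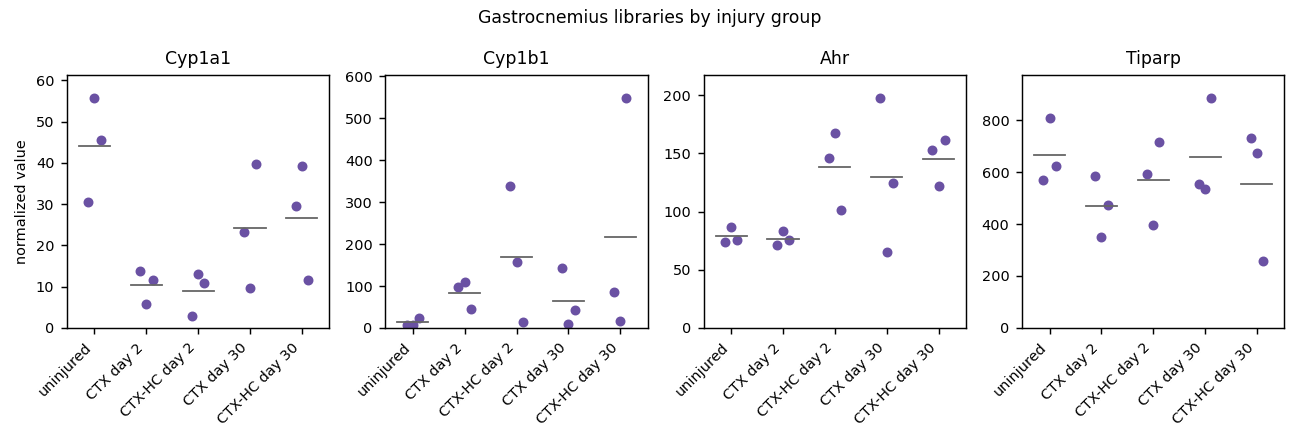
Normalized values of Cyp1a1, Cyp1b1, Ahr and Tiparp in the 15 gastrocnemius libraries by group, with a line at each mean of 3. Cyp1a1 lies at 30.6 to 55.8 in uninjured muscle and at 5.84 to 13.7 in CTX day 2, and 1 library of CTX-HC day 30 holds the highest Cyp1b1 value, 549.

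Other genes of the pathway were read from 3 lists. In 14 of the 17 tested comparisons no gene at all passed, and the highest share of all genes that passed was 0.257%. A count of 0 for a list therefore says little about that list. The list of AHR complex members and partners had 6 genes (Hsp90aa1, Hsp90ab1, Ptges3, Arnt2, Arntl and Nfe2l2), of which 5 were tested in AML12 cells and liver and 6 in both muscles, and 0 passed in any of the 17 tested comparisons. Hsp90ab1, the chaperone that holds the free receptor, was 36670 to 54910 in AML12 cells and its log2 difference lay between -0.08 and 0.10 over 10 comparisons. Hsp90aa1, its inducible form, was 1948 to 5380 there, with differences between -0.35 and 0.95 and a lowest adjusted p of 0.405 in limma. In liver Hsp90ab1 was 12610 to 18820, in soleus 16850 to 20020 and in gastrocnemius 14960 to 29750.

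Of 12 other AHR target genes, 10 were tested in AML12 cells, 9 in gastrocnemius, 8 in liver and 5 in soleus, and 0 passed, beside at most 0.257% of all genes in any comparison. Ugt1a6b, a glucuronosyltransferase that shares most of its locus and reads with related genes and is therefore uncertain, was 2452 to 6783 in AML12 cells, with differences between -0.58 and -0.11 and a lowest adjusted p of 0.362 in limma. Xdh, the xanthine dehydrogenase, was 1765 to 4511 there, with differences between -0.59 and 0.41. In gastrocnemius 12 of 45 tests of this list (26.7%) had an unadjusted p under 0.05, beside 9.41% of all tests in the same 5 comparisons, which share groups and 9 genes. Cd36, a fatty acid transporter, was 1452 to 7429 in that muscle, with differences between -0.73 and 0.95 and a lowest adjusted p of 0.256.

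The Bemp contrasts of this list, given without a test, had 6 of 10 genes higher and 4 lower in both siC and siAcly cells, with medians of 0.25 and 0.06 on the log2 scale. Of 9 genes that make or clear tryptophan-derived ligands, 7 were tested in liver, 4 in AML12 cells, 4 in gastrocnemius and 2 in soleus, and 0 passed, beside at most 0.257% of all genes in any comparison. Tdo2, the enzyme that opens the tryptophan ring in hepatocytes, was 9556 to 13900 in liver, and Kmo, the next hydroxylase of the pathway, was 2589 to 3014. In AML12 cells the 2 most abundant were Afmid at 338 to 465.7 and Kyat1 at 51.5 to 200.4.

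Genes whose pattern was most like that of Cyp1a1 were ranked by Pearson r of log2 values over the 24 AML12 libraries, which share lines, families and treatments. The 8 highest of 12295 genes were Cyp1b1 (r = 0.778), Rps6ka5 (0.724), Acy1 (0.69), Abcf1 (0.684), Snx8 (0.665), Blvrb (0.657), Lgmn (0.636) and Htatip2 (0.634). Cyp1b1, a member, was thus first. Tiparp was number 68 (r = 0.491) and Cyp1a2 number 1818 (r = 0.243). Ahr and Arnt had r = -0.242 and -0.224.

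The order depended on the families of library numbers. Over the 17 libraries numbered 1 to 23, Cyp1a2 was first (r = 0.813) and Cyp1b1 number 7, and 2 of the 8 genes stayed among the first 8. After the mean of each family was subtracted and libraries 11 and 13 left out, Tob2 was first (r = 0.746), Cyp1b1 number 3 (r = 0.691) and Cyp1a2 number 10 (r = 0.65), and 1 of the 8 stayed. In each of the 3 orders Cyp1b1 was among the first 8, but the orders share libraries. Each rests on Cyp1a1 values that chose the genes, so the places of the members are a description and not evidence of their own.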

How the data were processed

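RNA-seq of 59 libraries was analysed in 4 tables (AML12 cells 24, liver 10, soleus 10, gastrocnemius 15). Reads had been aligned by the authors to mm10 (an application built on STAR), and their counts per gene scaled with DESeq2's median of ratios. The deposited signal values are thus normalized counts and not reads. Factors differ between genes of a library, so whole reads could not be recovered, no count model was run, and depth was estimated as the sum of a library divided by its most frequent value between 0 and 2. The labels name rRNA depletion with a directional kit for liver and soleus, and the methods of the study a stranded mRNA kit.

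Values were taken to log2 after adding 1, which makes fold changes of low genes smaller. Genes with at least 10 in as many libraries as the smallest group (3 in AML12 cells and gastrocnemius, 5 in liver and soleus) were tested with limma 3.58.1 (trend) in R 4.3.3, all groups of a table in 1 fit, with Benjamini-Hochberg adjustment over all genes tested at 0.05. The test was tried on simulated data. Means are of untransformed values. Lengths are the union of GENCODE M21 exons on GRCm38, and promoters are from RefSeq on GRCm38.p6. All 8 members are described in every table. From each other list the 3 largest that passed, or else the 2 most abundant, were named, and 8 genes were named by likeness to Cyp1a1; Tob2 was named after its value was seen. The members and lists were chosen with earlier results of these data known. Part of the lists is not reported here. Libraries 11 and 13 were kept under their labels. Replicate numbers were not used for pairing, since each mouse is a separate animal. Alternatives were pseudocounts of 0.5 and 5, no limit on low values, quantile normalization, fits of 2 groups, number series or replicate block as covariates, and leaving out libraries. The covariate of 3 number families, its fit without libraries 11 and 13, likeness within families, and leaving out gastrocnemius libraries 51 and 62 were added after seeing the data.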

Additional observations from a re-analysis of the deposited data

Results flagged for a closer look

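In groups of 5 mice, 5 of 32 sets of values of a member had a sample whose distance from the others was large for the range. The limit used gives about 1 in 20 only for normally distributed values, so 5 of 32 cannot be read against that share. Of the 5 sets, 3 rest on a single value above 0, which always passes the limit: Ahrr in liver Ut 2 (3.15, the other 4 at 0), Aldh3a1 in liver Ut 4 (0.922, the other 4 at 0) and Aldh3a1 in liver HC 5 (1.42, the other 4 at 0). The other 2 are Cyp1a1 in soleus Ut 4 (24.8, the others 2.22 to 8.49) and Cyp1a1 in soleus HC 1 (11.2, the others 0 to 2.90). Soleus Ut 4 had the highest endothelial marker sum of its group (4563, the others 3269 to 4186) and an Alb value of 181. Soleus HC 1 had the lowest macrophage and fibroblast marker sums of its group (143.8 and 2272) and an Alb value of 482. The part of these in the Cyp1a1 values was not tested.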

How the results depend on the processing

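No member passed under any of the alternatives run for the 17 tested comparisons, counted as 133 comparisons under other settings and 122 with 1 library left out. The replicate block was tried in liver and soleus, where it gave 0 members and 0 genes. The deviations of same-numbered mice had r of 0.0243 to 0.0833 in liver and -0.112 to 0.403 in soleus, and 2 of 5 and 1 of 5 mice agreed best with their own number. For AML12 and gastrocnemius no paired analysis was possible because the groups share no replicate numbers. The counts over all genes were less stable: over other settings and over left-out libraries they ran from 0 (without siC Ut 2, siC Ut 13 or siAcly Ut 15) to 300 (without siAcly Ut 14) for siAcly Ut against siC Ut (23), 0 to 85 for siAcly HC against siC HC (1), 0 (without CTX day 2 library 56 or CTX day 30 library 50) to 1230 (without CTX-HC day 30 library 62) for CTX day 30 against day 2 (36), 0 to 63 and 0 to 13 for siAcly against siC with SB and with Bemp, and 0 to 80 (without CTX-HC day 30 library 62) for CTX day 2 against uninjured muscle (all 3 at 0). The high counts for siAcly against siC with HC, SB and Bemp came with the number family as a covariate and libraries 11 and 13 left out.

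Without libraries 11 and 13 the Cyp1a1 difference of siC Bemp from Ut was 2.55 (1.05 with them), and Cyp1a1 turned sign in siC HC (0.41), siC SB (0.37), siAcly against siC with Bemp (-0.50) and without compound (0.15). With the number family as a covariate as well, these were 0.14, 0.10 and -0.20 for the first 3, siAcly SB was 0.0447, Cyp1a2 in siC Bemp was 1.36 and Cyp1a2 in siAcly against siC Ut was 0.0636. With the family alone, siAcly SB was 0.0131 for Cyp1a1, and Cyp1a2 was 1.43 and 0.13. Cyp1a2 in siC Bemp (-0.03) was 0.0485 with a pseudocount of 5, 0.11 with quantile normalization, 0.99 with the number series and 0.38 without libraries 11 and 13. Cyp1a1 in siAcly HC was -0.0191 with quantile normalization. The list of genes like Cyp1a1 kept 2 of 8 genes over numbers 1 to 23 and 1 within families. The causes were not tested.

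With 1 library left out, the Cyp1a1 difference from Ut ran from 0.61 to 1.81 in siC Bemp, from 1.59 to 2.40 in siAcly Bemp, from -0.79 to 0.41 in siC HC, from -0.74 to 0.37 in siC SB, from -0.40 to 0.53 in siAcly HC and from -0.54 to 0.42 in siAcly SB. Between siAcly and siC it ran from -0.50 to 0.71 with Bemp and from -1.08 to 0.15 without. Cyp1a2 in siC Bemp ran from -1.06 to 0.92, Ahr in liver from -0.0508 to 0.23, Tiparp in soleus from -0.0478 to 0.14 and Cyp1b1 in CTX-HC day 30 from -0.0313 to 2.47. The adjusted p of Cyp1a1 in CTX day 2 was 0.0947 to 0.328 over other settings. Depth limits Ahrr in AML12 cells and liver and Aldh3a1 in liver, where values above 0 were about 1 to 4 times that taken as 1 read.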
